A study of Mus musculus with 15 samples.

Results

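The 33 genes described here mark position within the liver lobule: 13 are taken as periportal and 20 as pericentral or driven by Wnt signalling. They were picked by gene symbol from the 54532 genes of a table of FPKM, fragments per kilobase of exon scaled to the size of the library, a level per length that can be compared between genes. The choice was made with earlier results of these data known, so shares of members set beside all genes are descriptive. The libraries are bulk RNA-seq of whole liver from mice at postnatal day 12, in 4 groups. BALBc hyperoxia (n = 4) and C57 hyperoxia (n = 4) animals breathed 75% oxygen from day 7, and BALBc normoxia (n = 3) and C57 normoxia (n = 4) animals stayed in room air. Both strains serve in a model of oxygen-induced retinopathy, and the series sets a resistant against a susceptible strain. No transgene or mutant allele is named for any group. The labels do not say whether the libraries of a group came from separate animals, so p-values measure the spread between these samples only, and part of it may be technical. Of the 33 genes, 32 reached 1 FPKM in 3 or more libraries and entered the tests, 12 periportal and all 20 pericentral. Whole-liver RNA carries no position, so the periportal and pericentral names come from textbook knowledge of the lobule and were not measured here.

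Blood enters the liver lobule at the portal tracts, rich in oxygen and nutrients, and leaves at the central vein. Hepatocytes along this path divide the work of the organ. Periportal cells favour urea and glucose synthesis and the breakdown of amino acids, whereas pericentral cells capture leftover ammonia as glutamine and hold many of the cytochrome P450 enzymes that oxidise drugs. Wnt ligands and R-spondins released near the central vein stabilise beta-catenin, which acts with TCF/LEF factors to maintain the pericentral programme. Oxygen falls along the same axis and is known to act on zonated genes as well.

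Promoters are shown for the members that changed with oxygen in BALBc (Cyp2f2, Uox and Lect2) and for a pair of P450 genes that differed between strains (Cyp2e1 and Cyp1a2). Each runs from 250 bases before to 50 bases after the start given by RefSeq on GRCm38.p6, 5′ to 3′ on the gene's strand. For Uox this start lies 26723 bases inside the gene as GENCODE bounds it, and for the other 4 it lies within 80 bases of the GENCODE start. The windows lie at chr7:27119705-27120004 (plus strand) for Cyp2f2, chr3:146596899-146597198 (plus) for Uox, chr13:56548489-56548788 (minus) for Lect2, chr7:140763569-140763868 (plus) for Cyp2e1 and chr9:57683606-57683905 (minus) for Cyp1a2. Capitals mark the TCF/LEF core CTTTGA or its reverse complement TCAAAG.
Cyp2f2: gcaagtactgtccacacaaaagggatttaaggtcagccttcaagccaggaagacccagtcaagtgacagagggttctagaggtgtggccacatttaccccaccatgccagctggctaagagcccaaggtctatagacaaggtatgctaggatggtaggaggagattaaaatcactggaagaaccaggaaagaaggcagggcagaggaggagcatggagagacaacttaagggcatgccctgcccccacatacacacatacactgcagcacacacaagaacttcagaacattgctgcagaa
Uox: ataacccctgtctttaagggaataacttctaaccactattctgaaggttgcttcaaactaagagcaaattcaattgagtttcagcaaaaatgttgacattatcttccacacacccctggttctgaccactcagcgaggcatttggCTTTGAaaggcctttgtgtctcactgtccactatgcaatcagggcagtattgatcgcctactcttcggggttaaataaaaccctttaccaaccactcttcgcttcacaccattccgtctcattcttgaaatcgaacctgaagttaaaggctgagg
Lect2: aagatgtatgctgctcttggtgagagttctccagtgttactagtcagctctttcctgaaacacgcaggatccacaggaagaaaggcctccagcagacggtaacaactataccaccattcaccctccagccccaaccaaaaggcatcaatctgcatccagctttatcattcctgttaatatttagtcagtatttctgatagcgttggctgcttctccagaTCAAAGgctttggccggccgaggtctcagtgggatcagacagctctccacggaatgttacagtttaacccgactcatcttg
Cyp2e1: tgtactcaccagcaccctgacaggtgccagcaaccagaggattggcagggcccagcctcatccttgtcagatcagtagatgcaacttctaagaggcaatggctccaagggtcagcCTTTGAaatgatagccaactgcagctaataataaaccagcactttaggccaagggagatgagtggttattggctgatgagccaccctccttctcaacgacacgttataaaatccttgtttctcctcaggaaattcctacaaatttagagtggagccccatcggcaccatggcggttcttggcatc
Cyp1a2: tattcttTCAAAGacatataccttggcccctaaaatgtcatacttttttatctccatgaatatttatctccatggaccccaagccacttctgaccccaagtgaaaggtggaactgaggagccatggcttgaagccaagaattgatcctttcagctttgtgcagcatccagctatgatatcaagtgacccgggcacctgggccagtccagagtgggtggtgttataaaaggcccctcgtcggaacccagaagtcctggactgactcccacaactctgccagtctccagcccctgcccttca
The core lay 105 bases before the RefSeq start of Uox, 31 before that of Lect2, 135 before that of Cyp2e1 and 243 before that of Cyp1a2, and its letters were not in the Cyp2f2 window. Among the 25 members with a window, the core occurred in 5 of 10 periportal genes (Agxt, Aldh1b1, Hal, Hsd17b13 and Uox) and in 6 of 15 pericentral genes (Cyp1a2, Cyp2e1, Lect2, Slc1a2, Slc22a3 and Sp5). Of 27025 genes with a window of this length, 18.2% held it on either strand. The core of the hepatocyte factor HNF4A, CAAAGTC or GACTTTG, occurred in Hsd17b13 and Slc22a3 and in 5.0% of all genes, and 2 matches in the members' windows overlapped a TCF/LEF match. A match describes the letters and does not show binding.

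The members covered a wide range of levels. Cyp2e1, the P450 that oxidises ethanol and paracetamol, was the highest at 1206 to 2524 FPKM over the 15 libraries. Apof, which encodes an apolipoprotein, followed at 687 to 1008 FPKM and Agxt, the enzyme that detoxifies glyoxylate, at 311 to 522. Glul, the glutamine synthetase of the cells around the central vein, lay at 113 to 174 FPKM. Of the members that report Wnt signalling, Lgr5, a receptor for R-spondins, was low at 0.772 to 1.51 FPKM. Axin2, a scaffold that promotes beta-catenin breakdown, had 1.89 to 3.65. Sult5a1, a sulfotransferase gene, was the lowest and was not tested. It had 0.0611, 0, 0.0749 and 0.101 FPKM in BALBc hyperoxia and 0.0591, 0 and 0 in BALBc normoxia. In the C57 libraries it had 0.370, 0.374, 0.394 and 0.281 FPKM in hyperoxia and 0.352, 0, 0.477 and 0.326 in normoxia. These values rest on 0 to 34 fragments a library.

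Spread within groups also differed between members. Cdh1, which encodes the adhesion protein E-cadherin, had a coefficient of variation of at most 4.80% in any group. Rhbg, an ammonium transporter of pericentral cells, had 0.128, 3.22, 4.45 and 1.22 FPKM in the C57 normoxia libraries, a coefficient of variation of 86.3%, and rested on 4 to 139 fragments a library. Sp5, a transcription factor induced by Wnt, reached 61.5%, on 19 to 79 fragments. The sources used here do not state whether reads were counted by strand, and some members share exonic bases with an antisense gene. Slc22a3 shares 420 of its 4513 exonic bases with Plg (608 to 708 FPKM), and Cyp2f2 shares 274 of 2025 with Gm15883 (1.82 to 3.79 FPKM), so reads of these pairs cannot be fully told apart. Rhbg shares 1190 of 1937 exonic bases with Gm38392 on its own strand, a gene listed at 0 to 0.126 FPKM.

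The steps between low FPKM values gave 1.49e+07 to 1.91e+07 fragments behind each library. By the same steps the libraries divided into 2 kinds. In 7 of them 29.7% to 33.5% of the genes with 1 to 10 fragments sat at exactly 1, against 10.3% to 18.2% in the other 8. The 7 were BALBc hyperoxia 1, BALBc normoxia 1, all 4 C57 hyperoxia libraries and C57 normoxia 4, so library kind overlaps with oxygen in C57 and, in hyperoxia, with strain (1 of 4 BALBc and 4 of 4 C57 libraries). With library kind as a term, the genes called numbered 157 in place of 123 for the BALBc response, 14 in place of 122 for C57, 28 in place of 107 for the interaction, 1935 in place of 3025 between strains in hyperoxia and 4070 in place of 3910 in normoxia. The labelled tissue carried its defining marker, as Alb, the plasma protein made by all hepatocytes, had 41957 to 59128 FPKM. Markers of other liver cells were present as well, namely Krt19 (0.700 to 12.4 FPKM) and Epcam (1.09 to 4.26) of bile duct cells, Pecam1 (5.38 to 8.51) and Stab2 (16.1 to 21.2) of endothelium, Clec4f of Kupffer cells (49.5 to 96.3), Lrat of stellate cells (4.14 to 8.80) and Alas2 of red cell precursors (22.6 to 35.0).

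The first comparison asked how hyperoxia changed these genes in BALBc livers. Of the 32 members tested, Cyp2f2, Uox and Lect2 fell and none rose, against 0.944% of all 13026 genes called in this comparison (0.537% lower, 0.407% higher; limma, adjusted p under 0.05). Of the periportal set 2 of 12 fell, and the median log2 change was -0.21, with 10 of 12 values below 0. Of the pericentral set 1 of 20 fell, and the median was -0.13, with 12 of 20 below 0, while the median of all genes was 0.00. Log2 changes throughout are of FPKM + 1, which makes them smaller for genes with few FPKM. In bulk liver, fewer cells of a type and less RNA per cell cannot be told apart.

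Cyp2f2 (ENSMUSG00000052974, chromosome 7, 27119909 to 27133660), a P450 that oxidises naphthalene and other small aromatic compounds, fell the most. It had 23.6, 20.9, 27.6 and 24.3 FPKM in BALBc hyperoxia, against 43.1, 58.5 and 47.2 in BALBc normoxia. The 4 hyperoxia libraries thus lay well below the 3 normoxia libraries. The means were 24.1 ± 2.77 and 49.6 ± 7.98 FPKM (SD, n = 4 and 3), a log2 change of -1.01 ± 0.18 (SE, adjusted p = 0.0140, limma). The call was lost when BALBc hyperoxia 2 (adjusted p = 0.0522), normoxia 2 (0.0831) or normoxia 3 (0.0788) was left out, with log2 changes between -0.89 and -1.04. Within the 8 libraries with few genes at 1 fragment (3 hyperoxia and 2 normoxia BALBc libraries) the change was -1.09 (adjusted p = 0.176, limma), where 12 of all genes were called. The 7 of the other kind hold 1 BALBc library of each condition, a comparison that called 0 genes of any kind, and the value there was -0.85.

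Uox (ENSMUSG00000028186, chromosome 3, 146570426 to 146632305), the urate oxidase that mice but not humans use to break down uric acid, was also lower. It had 102, 97.5, 98.4 and 103 FPKM in BALBc hyperoxia, against 139, 161 and 145 in BALBc normoxia. The hyperoxia libraries lay close together and below every normoxia library. The log2 change was -0.56 ± 0.11 (adjusted p = 0.0269, limma), and the call was lost when any BALBc library other than normoxia 1 was left out (adjusted p between 0.0635 and 0.123).

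Lect2 (ENSMUSG00000021539, chromosome 13, 56542464 to 56548502), a protein that hepatocytes secrete and that attracts leukocytes, was the pericentral member that fell. It had 376, 331, 310.4 and 324 FPKM in BALBc hyperoxia, against 569, 420.1 and 467 in BALBc normoxia. The groups did not overlap, with BALBc normoxia 1 the highest of all. The log2 change of -0.52 ± 0.12 passed only just (adjusted p = 0.0498, limma). Leaving out 1 library ended this call in 12 of 15 refits, namely all but those without C57 hyperoxia 2, C57 hyperoxia 3 or C57 normoxia 2, with an adjusted p of at most 0.144.

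**Figure D1:**
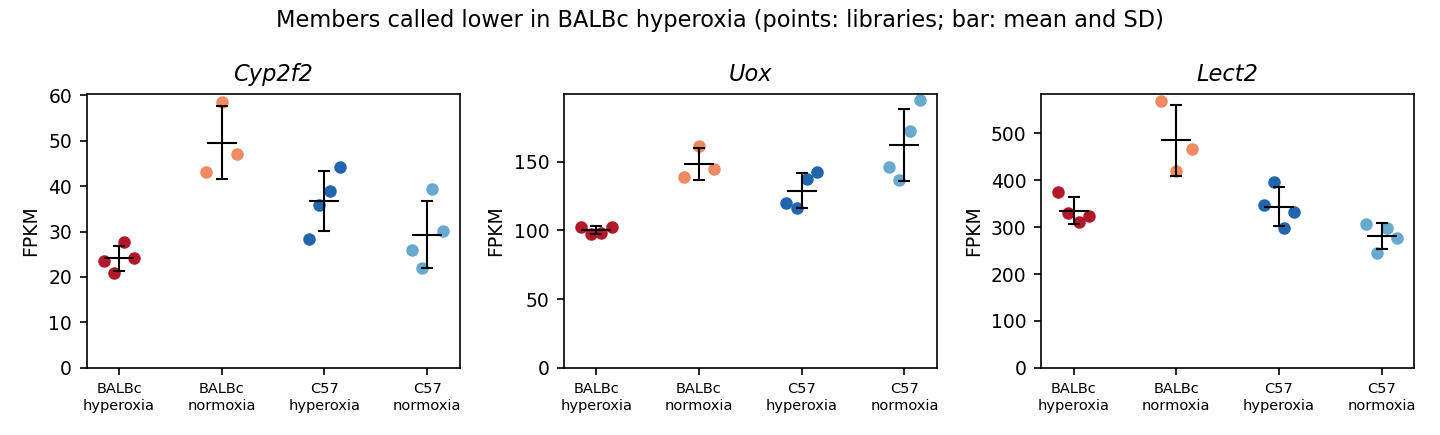
FPKM (y axes from 0) of Cyp2f2, Uox and Lect2 in the 4 groups; points are libraries, horizontal marks the mean and bars the SD. In BALBc the hyperoxia points of each gene lie below all normoxia points, whereas in C57 the points of the oxygen groups overlap.

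No other member passed the test in BALBc. Of all 32 members tested there, 11 (34.4%) had an unadjusted p under 0.05 by limma, against 12.4% of all genes. All 4 hyperoxia libraries lay below all 3 normoxia libraries for 9 of 32 members, against 7.15% of all genes, and above them for 2 of 32, against 6.43%. Besides the 3 members called, those below were the periportal genes Hal, Etnppl, Aldh1b1 and Apof and the pericentral genes Gulo and Oat. Those above were the periportal Hsd17b13, a lipid droplet protein, and the pericentral Slc13a3, a dicarboxylate transporter. Oat, which converts ornithine to a precursor of glutamate, had 45.7, 45.4, 56.5 and 57.1 FPKM in BALBc hyperoxia, against 75.8, 76.5 and 83.7 in BALBc normoxia, with a log2 change of -0.62 ± 0.23 (adjusted p = 0.247, limma). Gulo, the enzyme of the last step of vitamin C synthesis, had 243, 264, 255 and 248 FPKM in BALBc hyperoxia, against 316, 334 and 349.6 in BALBc normoxia, with a log2 change of -0.40 ± 0.11 (adjusted p = 0.104, limma). Slc13a3 had 78.3, 86.6, 80.4 and 83.8 FPKM in hyperoxia, against 61.4, 62.1 and 62.9 in normoxia, with a log2 change of 0.40 ± 0.11 (adjusted p = 0.122). In a fit of the BALBc libraries alone, 3 pericentral members were called, Gulo and Oat as lower and Slc13a3 as higher, but not Lect2. With library kind as a term, 2 were called, Gulo and Lect2, both lower.

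Genes with a known place in the lobule that are not members were examined beside them. Of 22 other periportal genes tested, 2 fell in BALBc and none rose, against 0.537% and 0.407% of all genes. Their median log2 change was -0.30, and 11 had an unadjusted p under 0.05 by limma. Cps1, which commits ammonia to the urea cycle, averaged 307 ± 29.9 FPKM in BALBc hyperoxia and 573 ± 111 in BALBc normoxia, a log2 change of -0.89 ± 0.17 (adjusted p = 0.0203, limma). Tdo2, which opens the tryptophan ring, averaged 116 ± 12.3 and 199 ± 10.8 FPKM, a change of -0.78 ± 0.12 (adjusted p = 0.00757). The Cps1 call was lost without BALBc hyperoxia 1, 2 or 3 or normoxia 2 or 3 (adjusted p between 0.0539 and 0.124), and the Tdo2 call without BALBc normoxia 3 (0.0639). Of 20 other pericentral genes, none was called by limma and 9 had an unadjusted p under 0.05, with a median of -0.17. Among all genes 12.4% had an unadjusted p under 0.05 in this comparison. Of 23 genes shared by all hepatocytes, none was called and 4 had an unadjusted p under 0.05, with a median of -0.10, and their summed level was 99438 to 101755 FPKM in BALBc hyperoxia, against 104965 to 113293 in BALBc normoxia. Scaled to the pan-hepatocyte genes, which moved the median of all genes by 0.10, Cyp2f2 and Uox were still called lower and Lect2 was not. The summed levels of Kupffer cell markers (263 to 343 FPKM in hyperoxia, 285 to 316 in normoxia) and bile duct markers (47.7 to 54.4 and 49.1 to 52.9) overlapped between the BALBc groups, as did those of endothelial, stellate and red cell markers. Of single markers, the stellate list held 1 call, Rgs5, also a marker of pericytes (-1.21 ± 0.19, adjusted p = 0.00710), which was lost without BALBc normoxia 3 (0.0639). The 13 red cell markers held no call by limma, with 10 above 0, a median of 0.31 and 6 at an unadjusted p under 0.05. The part of these levels in the members' changes was not tested.

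The same comparison in C57 gave no call among the 32 members, against 0.937% of all genes. By limma, 5 members had an unadjusted p under 0.05 (Uox, Cyp2e1, Cyp1a2, Lect2 and Cldn2), 15.6% of them against 14.2% of all genes, and no setting tried, with the same tool, called any. The median log2 change was -0.07 in the periportal set and 0.03 in the pericentral set. Uox had 120.2, 116, 137 and 143 FPKM in C57 hyperoxia, against 146, 137, 172 and 195 in C57 normoxia, with a log2 change of -0.32 ± 0.10 (adjusted p = 0.163). Lect2 had 348, 397, 299 and 332 FPKM in C57 hyperoxia, against 307, 245, 297 and 277 in C57 normoxia, a change of 0.29 ± 0.11 (adjusted p = 0.232). The groups overlapped for both genes. Cldn2, a tight junction protein of pericentral hepatocytes, was the only member whose hyperoxia libraries (19.5, 21.9, 19.9 and 14.2 FPKM) all lay below the normoxia libraries (23.5, 24.2, 22.2 and 23.9), and it did not pass (-0.31 ± 0.13, adjusted p = 0.292). This direction of no overlap was seen in 4.38% of all genes, and no member had all its hyperoxia libraries above, against 3.51% of all genes. Neither the 22 other periportal nor the 20 other pericentral genes held a call by limma, with 8 and 3 of them at an unadjusted p under 0.05. Rgs5 fell here as well (-0.86 ± 0.17, adjusted p = 0.0349, limma), a call lost in 7 refits that leave out 1 library. Of 12 Kupffer cell markers, Marco was called lower (-2.21 ± 0.25) and Clec4f higher (0.44 ± 0.10). By limma, 8 of these 12 and 9 of 23 pan-hepatocyte genes had an unadjusted p under 0.05, with Hpx called lower (-0.42 ± 0.08). Bile duct, endothelial and red cell markers held no call. The part of these markers was not tested.

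Whether the response differed between strains was tested directly by the interaction term, the BALBc change minus the C57 change. Cyp2f2 and Lect2 were called, 2 of 32 members, against 0.821% of all genes. For both the term was negative, against 0.445% of all genes with a negative and 0.376% with a positive call. Cyp2f2 in C57 had 28.4, 35.8, 38.9 and 44.3 FPKM in hyperoxia, against 25.8, 22.1, 39.4 and 30.1 in normoxia, overlapping groups with a change of 0.33 ± 0.17 that was not called (adjusted p = 0.387, limma). Set against the fall in BALBc, its interaction was -1.34 ± 0.24 (adjusted p = 0.0234). That call was lost without BALBc hyperoxia 2, normoxia 2 or normoxia 3 (adjusted p between 0.0557 and 0.0708) and with library kind as a term (-1.40, adjusted p = 0.0608). For Lect2 the interaction was -0.81 ± 0.16 (adjusted p = 0.0294), and it was lost without any one of 9 libraries (BALBc hyperoxia 2, 3 and 4, BALBc normoxia 1 and 3, C57 hyperoxia 1, 2 and 4, and C57 normoxia 2) and with library kind as a term (-0.66, adjusted p = 0.106). The interaction of Uox, -0.24, was not called (adjusted p = 0.559), so a difference of its response between strains was not detectable with these libraries. Of the other periportal genes, Cps1 (-1.16 ± 0.23, adjusted p = 0.0310) and Tdo2 (-1.06 ± 0.17, adjusted p = 0.0144) had called interactions, again negative, of which the Cps1 call was lost without any one of 7 libraries (BALBc hyperoxia 1, 2 and 3, BALBc normoxia 2 and 3, C57 hyperoxia 2 and 4; adjusted p between 0.0533 and 0.0948). The median interaction was -0.09 in the periportal and -0.20 in the pericentral set, against -0.005 over all genes. Values lay below 0 for 8 of 12 periportal and 16 of 20 pericentral members. By limma, 7 of 32 members (21.9%) had an unadjusted p under 0.05, against 12.7% of all genes. So did 11 of 22 other periportal genes and 10 of 20 other pericentral genes, and none of the latter was called.

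**Figure D2:**
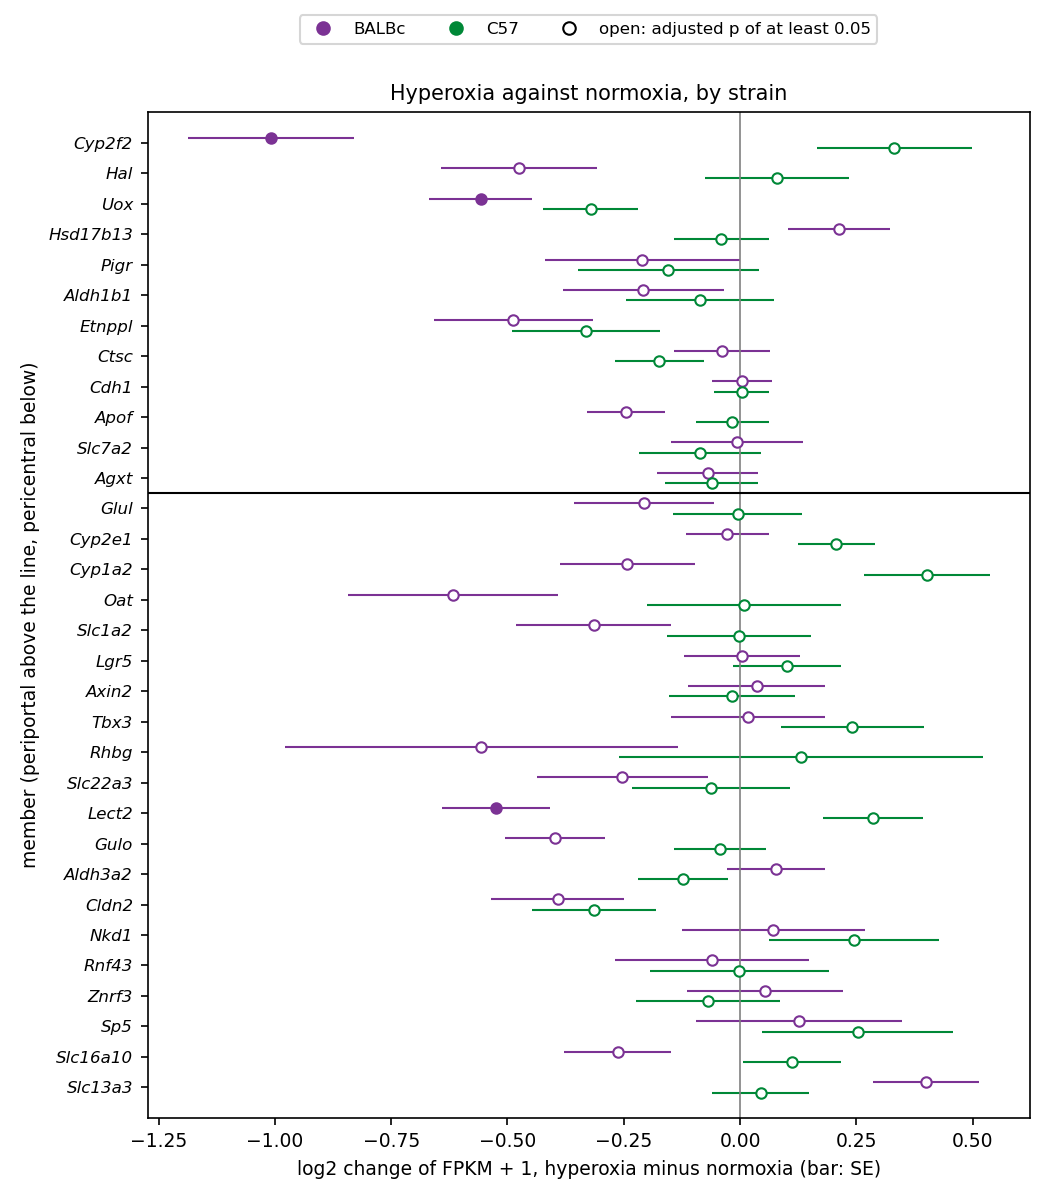
Log2 change of FPKM + 1, hyperoxia minus normoxia, with its SE for each tested member in BALBc and in C57; filled points passed an adjusted p of 0.05. The filled points are Cyp2f2, Uox and Lect2 in BALBc, all left of 0, and every C57 point is open.

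The strains were compared within each oxygen condition. These comparisons share libraries with the responses above but not with each other. In hyperoxia 12 of 32 members (37.5%) differed between BALBc and C57, against 23.2% of all genes. In normoxia 13 of 32 (40.6%) differed, against 30.0% of all genes. In hyperoxia, 1 periportal member was higher in BALBc and 7 were lower, against 11.9% and 11.3% of all genes, and 3 pericentral members were higher and 1 lower. In normoxia, 2 periportal members were higher and 3 lower, against 15.4% and 14.6% of all genes, and 7 pericentral members were higher and 1 lower. In hyperoxia all BALBc libraries lay above all C57 libraries for 5 of 32 members and below for 6, against 16.7% and 15.6% of all genes, and in normoxia for 8 and 6, against 15.7% and 14.2%. The periportal count in hyperoxia was 5 without BALBc hyperoxia 2 and 4 without C57 hyperoxia 4, and the pericentral count in normoxia was 5 without BALBc normoxia 1. Scaling to pan-hepatocyte genes, which raised the median of all genes by 0.14 in hyperoxia and 0.11 in normoxia, changed the periportal split to 3 higher and 2 lower in hyperoxia and to 4 higher and 2 lower in normoxia. The pericentral split became 4 higher and 1 lower in hyperoxia and 8 higher and 1 lower in normoxia. Under that scaling 19.6% of all genes were higher and 6.28% lower in hyperoxia, and 19.6% higher and 9.08% lower in normoxia. Before scaling, 3 of the 23 pan-hepatocyte genes were called higher and 10 lower in BALBc in hyperoxia, and 5 higher and 9 lower in normoxia. The reference for this scaling thus itself differed between strains. Red cell markers differed between strains too, with 8 of 13 higher in BALBc in hyperoxia (median 0.90) and 3 of 13 in normoxia (median 0.37) and none lower, and their summed level overlapped (1449 to 1957 FPKM in BALBc, against 1235 to 2908 in C57, in hyperoxia). Their part in the members' differences was not tested.

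The same direction was called in both conditions for 7 members: Ctsc, Slc7a2, Cdh1 and Cldn2 were lower in BALBc, and Cyp2e1, Cyp1a2 and Aldh3a2 were higher. The share of all genes called in both conditions, or in 1 of them alone, was not counted. Ctsc (ENSMUSG00000030560, chromosome 7, 88278085 to 88310888), the lysosomal protease cathepsin C, differed the most. It had 4.60, 4.86, 4.62 and 4.89 FPKM in BALBc hyperoxia, against 13.9, 13.9, 10.5 and 12.6 in C57 hyperoxia, a log2 difference of -1.25 ± 0.10 (adjusted p = 2.2e-07, limma). Its normoxia values were 5.40, 4.21 and 5.16 FPKM in BALBc, against 15.9, 13.3, 13.4 and 15.2 in C57, a difference of -1.39 ± 0.10 (adjusted p = 1.72e-07). No BALBc library reached the lowest C57 library. Immune cells express Ctsc as well, and the summed level of 12 Kupffer cell markers was also lower in BALBc, at 263 to 343 FPKM, against 511 to 609 in C57, in hyperoxia, and at 285 to 316 FPKM, against 708 to 1099, in normoxia. In each condition 10 of the 12 were called lower and 1 higher (Cd163, named after its value was seen), with medians of -0.58 and -0.84. Clec4f, the defining marker, was called lower in hyperoxia, at 54.3 ± 4.65 FPKM in BALBc and 81.8 ± 10.1 in C57. In normoxia Clec4f was not called, at 56.0 ± 5.15 FPKM in BALBc and 60.0 ± 5.71 in C57. Marco alone averaged 7.13 ± 0.823 FPKM in BALBc normoxia and 227 ± 62.5 in C57 normoxia, and 49.8 ± 21.4 in C57 hyperoxia. The part of Kupffer and other immune cells in the Ctsc difference was not tested.

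Slc7a2 (ENSMUSG00000031596, chromosome 8, 40862396 to 40922308) carries arginine and lysine into cells. It had 16.7, 14.4, 17.1 and 16.0 FPKM in BALBc hyperoxia, against 23.7, 26.0, 25.1 and 29.4 in C57 hyperoxia (-0.67 ± 0.13, adjusted p = 0.00185, limma). The normoxia values were 11.6, 18.9 and 18.8 FPKM in BALBc, against 24.9, 29.4, 25.6 and 31.2 in C57 (-0.75 ± 0.14, adjusted p = 0.00107). The strains did not overlap, although BALBc normoxia 1 stood below the other BALBc libraries. Cdh1 (ENSMUSG00000000303, chromosome 8, 106603351 to 106670246) had a small difference with little spread. It had 26.5, 24.5, 27.4 and 26.5 FPKM in BALBc hyperoxia, against 31.1, 31.6, 34.6 and 32.8 in C57 hyperoxia (-0.30 ± 0.06, adjusted p = 0.00188). Cdh1 in normoxia had 26.2, 27.0 and 25.1 FPKM in BALBc, against 33.1, 31.0, 33.9 and 31.8 in C57 (-0.30 ± 0.06, adjusted p = 0.00250). Scaled to pan-hepatocyte genes, Cdh1 was called in neither condition. Bile duct cells also express Cdh1, and the summed bile duct markers were lower in BALBc, at 47.7 to 54.4 FPKM, against 58.8 to 80.6 in C57, in hyperoxia, and at 49.1 to 52.9, against 62.4 to 75.6, in normoxia. Of the 7 bile duct markers tested, 2 were lower in hyperoxia (Spp1 and Sox9) and 1 in normoxia (Spp1). Spp1 made the largest part of these sums. It averaged 34.5 ± 2.29 FPKM in BALBc and 47.7 ± 4.28 in C57 in hyperoxia, and 33.3 ± 2.96 and 47.1 ± 3.08 in normoxia. Krt19 and Epcam were not called between strains. The part of bile duct cells in the Cdh1 difference was not tested.

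Cyp2e1 (ENSMUSG00000025479, chromosome 7, 140763739 to 140774987) was higher in BALBc. It had 2144, 2341, 2205 and 2272 FPKM in BALBc hyperoxia, against 1545, 1684, 1404 and 1505 in C57 hyperoxia (0.55 ± 0.08, adjusted p = 0.000212, limma). In normoxia it had 2524, 2157 and 2184 FPKM in BALBc, against 1399, 1516, 1206 and 1209 in C57 (0.78 ± 0.09, adjusted p = 1.24e-05). Every BALBc library exceeded every C57 library. Cyp1a2 (ENSMUSG00000032310, chromosome 9, 57676937 to 57683703), the P450 that clears caffeine, had 141, 140.1, 152 and 162 FPKM in BALBc hyperoxia, against 90.8, 102, 89.0 and 131 in C57 hyperoxia (0.54 ± 0.13, adjusted p = 0.00930). Cyp1a2 in normoxia had 153, 195 and 182 FPKM in BALBc, against 86.4, 75.5, 89.0 and 60.3 in C57 (1.18 ± 0.15, adjusted p = 2.62e-05). The strains did not overlap in either condition. The smaller difference in hyperoxia was not called with library kind as a term (0.32, adjusted p = 0.149), and the interaction of Cyp1a2, -0.64 ± 0.20, was not called (adjusted p = 0.165).

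Aldh3a2 (ENSMUSG00000010025, chromosome 11, 61223417 to 61267464), which oxidises fatty aldehydes, had 67.3, 65.5, 67.1 and 64.9 FPKM in BALBc hyperoxia, against 47.5, 41.4, 49.2 and 40.7 in C57 hyperoxia (0.56 ± 0.10, adjusted p = 0.000729, limma). Its values in normoxia were 68.3, 66.6 and 54.1 FPKM in BALBc, against 52.9, 55.4, 44.5 and 43.0 in C57 (0.36 ± 0.10, adjusted p = 0.0182). The normoxia groups overlapped, and that call was lost without BALBc normoxia 1 (adjusted p = 0.0790) or 2 (0.0777). Cldn2 (ENSMUSG00000047230, chromosome X, 139800828 to 139811386) was the pericentral member that was lower in BALBc. It had 10.5, 8.79, 11.8 and 9.94 FPKM in BALBc hyperoxia, against 19.5, 21.9, 19.9 and 14.2 in C57 hyperoxia (-0.81 ± 0.13, adjusted p = 0.000461). In normoxia it had 13.6, 17.1 and 11.1 FPKM in BALBc, against 23.5, 24.2, 22.2 and 23.9 in C57 (-0.73 ± 0.14, adjusted p = 0.00138). No BALBc library reached its C57 counterparts in the same condition.

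**Figure D3:**
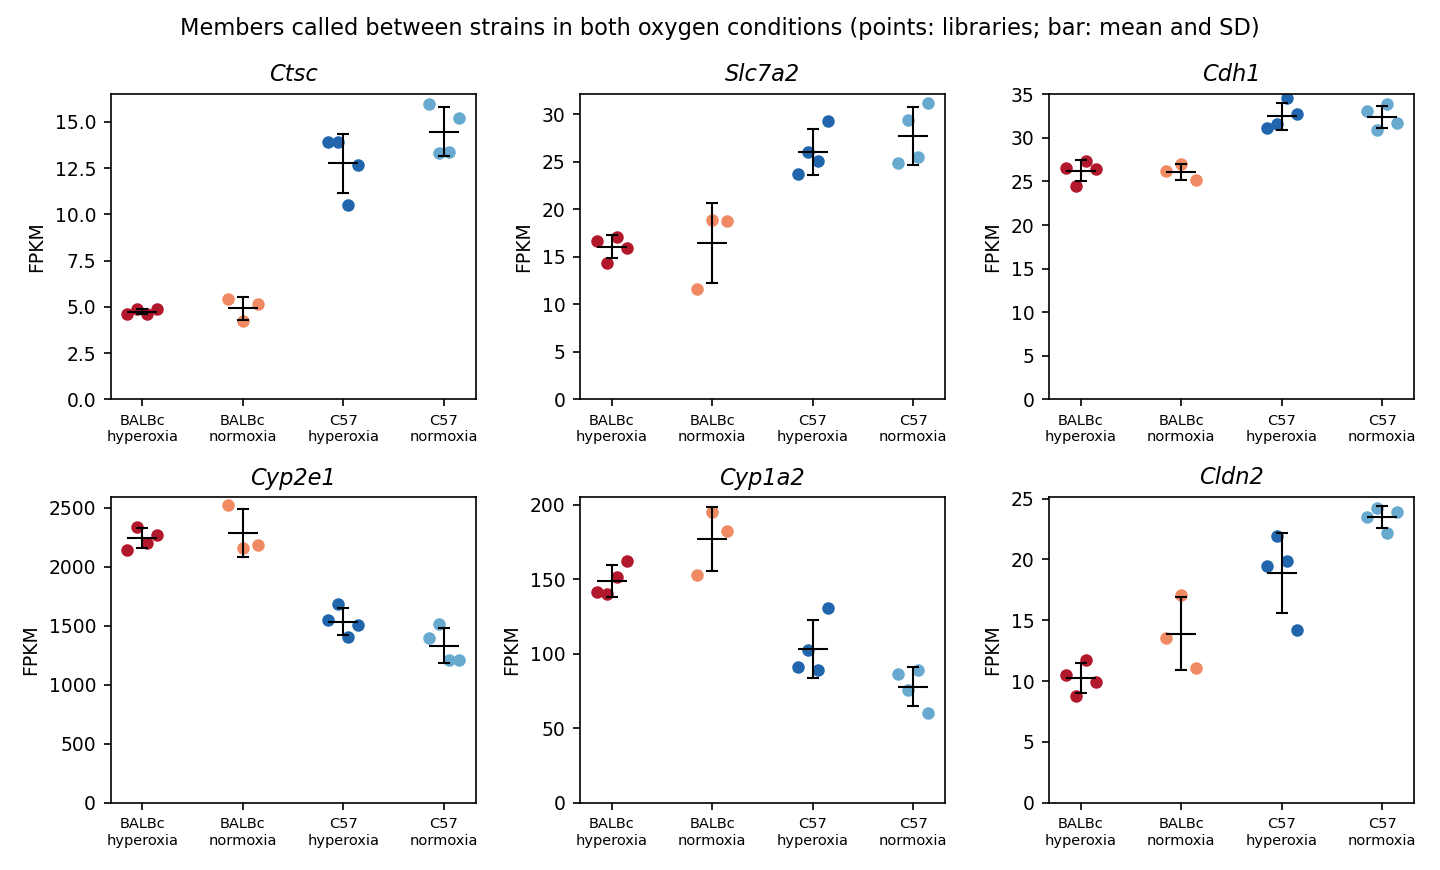
FPKM (y axes from 0) of 6 of the 7 members called between strains in both oxygen conditions; points are libraries, horizontal marks the mean and bars the SD. Ctsc, Slc7a2, Cdh1 and Cldn2 are lower and Cyp2e1 and Cyp1a2 higher in BALBc than in C57 of the same condition, without overlap.

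Cyp2f2 was called in both conditions with opposite signs. The BALBc hyperoxia libraries (20.9 to 27.6 FPKM) lay below the C57 hyperoxia libraries (28.4 to 44.3), a log2 difference of -0.58 ± 0.17 (adjusted p = 0.0193, limma). The BALBc normoxia libraries (43.1 to 58.5 FPKM) lay above the C57 normoxia libraries (22.1 to 39.4), a difference of 0.76 ± 0.18 (adjusted p = 0.00508). The change of sign is the interaction given above. The hyperoxia call was lost without BALBc hyperoxia 2 (adjusted p = 0.0591), C57 hyperoxia 3 (0.0515) or C57 hyperoxia 4 (0.0659), on pan-hepatocyte scaling and with library kind as a term.

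A call in hyperoxia alone was made for 4 periportal members. Hsd17b13 (ENSMUSG00000034528, chromosome 5, 103955440 to 103977410) was higher in BALBc, with 234, 213, 205 and 224 FPKM, against 161, 159, 140.2 and 142 in C57 (0.54 ± 0.10, adjusted p = 0.00142, limma). In normoxia it had 198, 182 and 186 FPKM in BALBc, against 146, 150.2, 131 and 198 in C57, where C57 normoxia 4 reached the BALBc level and the difference of 0.29 did not pass (adjusted p = 0.0641). Uox was lower in BALBc hyperoxia than in C57 hyperoxia, at 97.5 to 103 FPKM, against 116 to 143 (-0.36 ± 0.10, adjusted p = 0.0202), a call lost without C57 hyperoxia 3 (0.060) or 4 (0.0668). Hal, the enzyme that opens histidine breakdown, had 21.7, 25.4, 25.1 and 27.0 FPKM in BALBc hyperoxia, against 35.9, 35.4, 25.7 and 44.4 in C57 hyperoxia (-0.47 ± 0.15, adjusted p = 0.0379). Hal in normoxia had 30.7, 28.9 and 47.1 FPKM in BALBc, against 33.9, 33.1, 31.8 and 32.4 in C57. Etnppl, which breaks down phosphoethanolamine, had 5.50, 5.24, 5.19 and 6.54 FPKM in BALBc hyperoxia, against 9.82, 7.57, 6.26 and 10.4 in C57 hyperoxia (-0.50 ± 0.16, adjusted p = 0.0321). Etnppl in normoxia had 6.63, 7.52 and 11.1 FPKM in BALBc, against 8.93, 11.0, 11.5 and 11.9 in C57. For Hal and Etnppl the hyperoxia groups overlapped. The Hal call was lost in 7 of 15 refits that leave out 1 library (all BALBc hyperoxia libraries and C57 hyperoxia 1, 2 and 4; adjusted p of at most 0.124) and the Etnppl call in 5 (BALBc hyperoxia 1, 2 and 3 and C57 hyperoxia 1 and 4; at most 0.105). Scaled to pan-hepatocyte genes, Hal, Uox and Etnppl were not called. With library kind as a term, neither Uox (-0.28, adjusted p = 0.161, limma) nor Etnppl (-0.56, adjusted p = 0.0801) was. The interactions of these 4 genes were not called, so none is shown to differ between the conditions.

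A call in normoxia alone was made for Apof, Oat, Slc22a3, Lect2 and Gulo, each higher in BALBc. Lect2 lay at 420.1 to 569 FPKM in BALBc normoxia, against 245 to 307 in C57 normoxia (0.78 ± 0.12, adjusted p = 0.000153, limma), and at 310.4 to 376, against 299 to 397, in hyperoxia (-0.03, adjusted p = 0.867). Gulo (ENSMUSG00000034450, chromosome 14, 65986786 to 66009207) lay at 316 to 349.6 FPKM in BALBc normoxia, against 271, 244, 279.8 and 199.5 in C57 normoxia (0.43 ± 0.11, adjusted p = 0.00715). Its hyperoxia libraries overlapped, at 243 to 264 FPKM in BALBc, against 235, 276, 239 and 211 in C57. Apof had 1008, 1005 and 1006 FPKM in BALBc normoxia, against 845, 687, 854 and 931 in C57 normoxia (0.29 ± 0.08, adjusted p = 0.0181), a call lost without BALBc normoxia 2 (0.0510) or 3 (0.0507). In hyperoxia it had 794, 851, 888 and 866 FPKM in BALBc, against 764, 830.5, 821 and 847 in C57, which overlapped. Oat had 75.8, 76.5 and 83.7 FPKM in BALBc normoxia, against 57.2, 36.9, 62.3 and 39.3 in C57 normoxia (0.71 ± 0.23, adjusted p = 0.0277), a call lost without any 1 BALBc normoxia library or C57 normoxia 2 or 4 (at most 0.0874). Its hyperoxia values were 45.4 to 57.1 FPKM in BALBc, against 36.3, 71.9, 36.4 and 55.5 in C57, also overlapping. Slc22a3, an organic cation transporter, had 2.64, 2.43 and 1.49 FPKM in BALBc normoxia, against 1.49, 1.05, 1.26 and 0.508 in C57 normoxia (0.62 ± 0.18, adjusted p = 0.0193), lost without BALBc normoxia 1 (0.0842) or 2 (0.0763). In hyperoxia it had 1.47, 1.78, 2.10 and 1.27 FPKM in BALBc, against 1.03, 1.25, 0.891 and 0.700 in C57, where the strains did not overlap and the difference of 0.43 did not pass (adjusted p = 0.0843). Of these 5 genes, Lect2 alone had a called interaction.

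**Figure D4:**
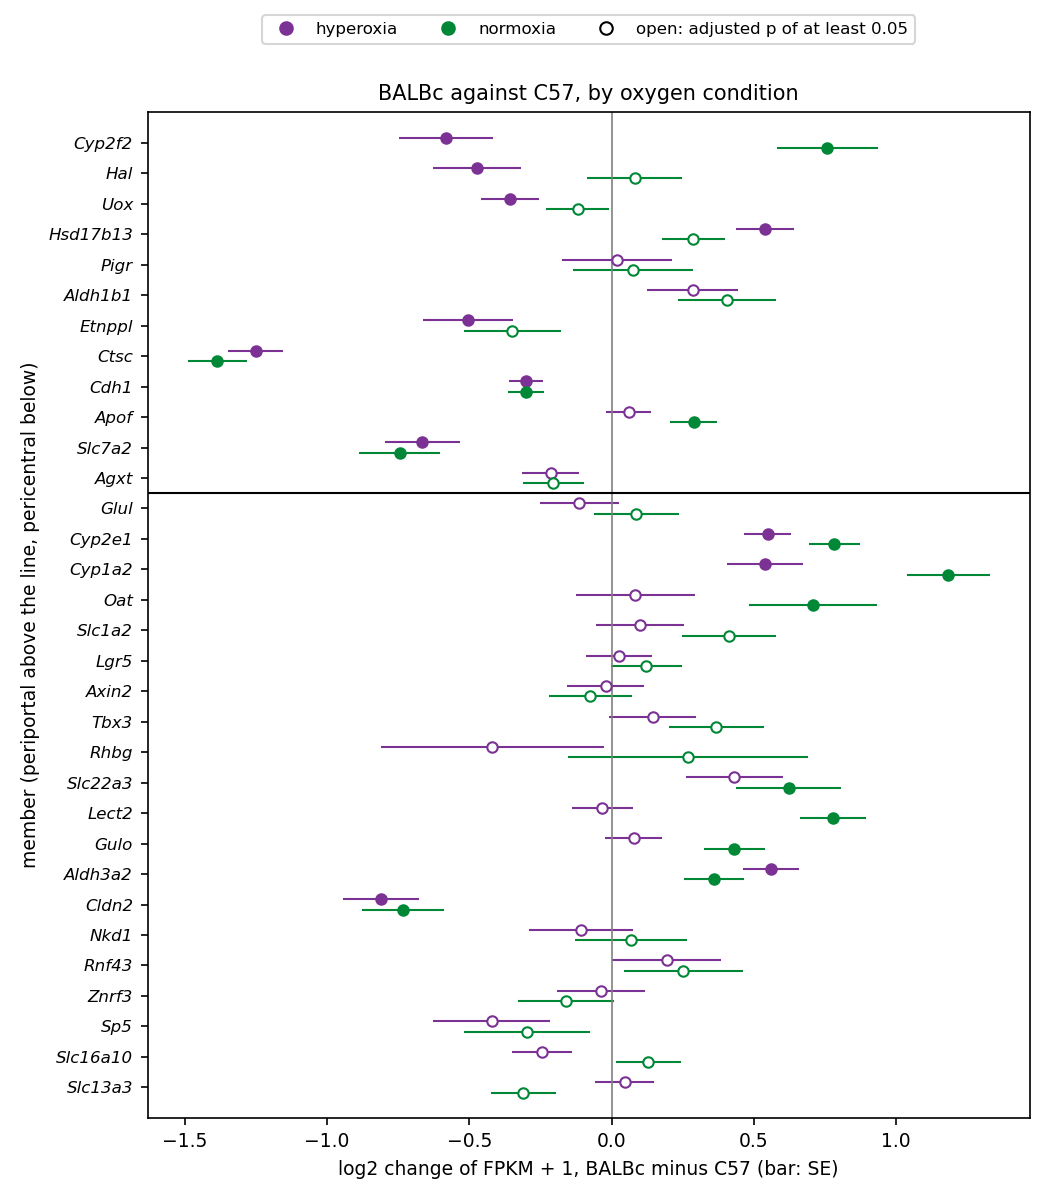
Log2 difference of FPKM + 1, BALBc minus C57, with its SE for each tested member in hyperoxia and in normoxia; filled points passed an adjusted p of 0.05. Ctsc lies farthest left in both conditions, Cyp1a2 in normoxia farthest right, and the Cyp2f2 points lie on opposite sides of 0.

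The other zonated genes also differed between strains in both directions. Of the 22 other periportal genes, 4 were higher and 9 lower in BALBc in hyperoxia, and 5 higher and 7 lower in normoxia. Of all genes 11.9% were higher and 11.3% lower in hyperoxia, and 15.4% higher and 14.6% lower in normoxia. Hsd17b6, a steroid and retinol dehydrogenase, averaged 53.6 ± 5.10 FPKM in BALBc hyperoxia and 129 ± 17.2 in C57 hyperoxia (-1.25 ± 0.12, adjusted p = 2.11e-06, limma), and Asl of the urea cycle averaged 29.1 ± 3.16 and 59.4 ± 9.42 (adjusted p = 1.17e-05). Tdo2 was higher in BALBc, by 0.48 ± 0.11 in hyperoxia and 1.54 ± 0.12 in normoxia (adjusted p = 0.00651 and 3.52e-07). Of the 20 other pericentral genes, 1 was higher and 8 lower in hyperoxia, and 3 higher and 8 lower in normoxia. Ces2a, a carboxylesterase, averaged 37.0 ± 2.62 FPKM in BALBc hyperoxia and 72.7 ± 8.39 in C57 hyperoxia (-0.95 ± 0.10, adjusted p = 4.13e-06), while Aldh1a1, a retinal dehydrogenase, averaged 16.5 ± 1.45 FPKM in BALBc normoxia and 4.34 ± 1.51 in C57 normoxia (1.75 ± 0.25, adjusted p = 9.8e-05). Cyp2c and Gstm genes of this list have near-identical copies, and their levels are uncertain where reads were shared.

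The members that report Wnt signalling most directly were not called in any of the 5 comparisons. These were Lgr5, Axin2, Tbx3, a transcription factor of pericentral hepatocytes, Nkd1, an inhibitor that binds Dishevelled, Rnf43 and Znrf3, ubiquitin ligases that remove Frizzled receptors, and Sp5. Their log2 changes with hyperoxia lay between -0.06 (Rnf43) and 0.13 (Sp5) in BALBc and between -0.07 (Znrf3) and 0.25 (Sp5) in C57, each with an SE of 0.12 to 0.22. Axin2 had 2.75, 2.69, 2.20 and 2.30 FPKM in BALBc hyperoxia, against 2.61, 2.26 and 2.31 in BALBc normoxia, and 2.20, 2.03, 3.03 and 2.97 in C57 hyperoxia, against 2.38, 3.65, 2.59 and 1.89 in C57 normoxia. Lgr5 had 1.36, 1.33, 1.23 and 1.15 FPKM in BALBc hyperoxia, against 0.978, 1.32 and 1.51 in BALBc normoxia, and 1.25, 1.23, 1.42 and 1.03 in C57 hyperoxia, against 1.39, 1.08, 1.11 and 0.772 in C57 normoxia. The groups of both genes overlapped throughout. Changes several times the size of these SEs could also go uncalled, as Gulo did in BALBc (-0.40 ± 0.11, adjusted p = 0.104, limma). The absence of a call thus does not show that these genes were unchanged. Also without a call were Glul, Slc1a2, a glutamate transporter, Rhbg, Slc16a10, an aromatic amino acid transporter, and Slc13a3 of the pericentral set, and Pigr, the receptor that carries antibodies into bile, Aldh1b1, a mitochondrial aldehyde dehydrogenase, and Agxt of the periportal set. Glul averaged 133 ± 13.0 FPKM in BALBc hyperoxia and 155 ± 23.1 in BALBc normoxia, and 146 ± 24.6 in C57 hyperoxia and 146 ± 23.0 in C57 normoxia.

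The pathway upstream of these targets was examined list by list. Of 11 ligand and secretion genes, 5 passed the filter, and by limma none was called with oxygen in either strain, nor did any have an unadjusted p under 0.05. None of 19 receptor and destruction complex genes was called either. By limma, 1 in BALBc and 4 in C57 had an unadjusted p under 0.05, against 12.4% and 14.2% of all genes. Rspo3, the R-spondin of central vein endothelium, averaged 2.23 ± 0.664 FPKM in BALBc hyperoxia and 2.03 ± 0.0465 in BALBc normoxia, and Wnt9b was under the filter at 0.130 to 0.800 FPKM. Between strains, Wnt2 was lower in BALBc hyperoxia (2.13 ± 0.394 FPKM) than in C57 hyperoxia (3.69 ± 0.215), with a log2 difference of -0.59 ± 0.13 (adjusted p = 0.00367, limma). Wnt5a was higher in BALBc by 0.62 ± 0.13 in hyperoxia and 0.50 ± 0.14 in normoxia (adjusted p = 0.00359 and 0.0172), and its normoxia call was lost without BALBc normoxia 1 (0.0678) or 3 (0.0544). Of the 19 receptor and destruction complex genes, 3 (Dvl1, Fzd4 and Lrp6) were higher in BALBc hyperoxia and none lower, against 11.9% and 11.3% of all genes. In normoxia 7 were higher: Ctnnb1, which encodes beta-catenin (0.29 ± 0.07, adjusted p = 0.00612, limma), Lrp6, Fzd4, Fzd7, Dvl1 and the destruction complex genes Gsk3b and Apc. The Dvl1 call was lost without BALBc normoxia 2 (0.0840) or 3 (0.0704). Dvl2 was lower (-0.62 ± 0.14, adjusted p = 0.00380). The shares of all genes there were 15.4% higher and 14.6% lower.

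With oxygen, 0.944% of all genes were called in BALBc and 0.937% in C57. Among 11 tested TCF/LEF factors and other feedback targets, Wif1, a secreted Wnt inhibitor, was the 1 gene called with oxygen. It averaged 1.33 ± 0.496 FPKM in C57 hyperoxia and 2.77 ± 0.344 in C57 normoxia (-0.71 ± 0.15, adjusted p = 0.0443, limma), a call lost in 14 of 15 refits that leave out 1 library, all but that without C57 normoxia 4, with an adjusted p of at most 0.133. It was also lower in BALBc than in C57, with log2 differences of -1.07 ± 0.15 in hyperoxia and -1.48 ± 0.17 in normoxia (adjusted p = 0.000149 and 1.15e-05) and means of 0.0920 ± 0.0689 FPKM in BALBc hyperoxia and 0.353 ± 0.157 in BALBc normoxia. In hyperoxia 2 of the 11, Wif1 and Tnfrsf19, were called lower in BALBc than in C57 and none higher. In normoxia 3 were lower, Wif1, Tnfrsf19 and the factor Tcf7, and none higher. Of all genes 11.9% were higher and 11.3% lower in hyperoxia, and 15.4% higher and 14.6% lower in normoxia. Notum, which inactivates Wnt ligands and is made around the central vein, averaged 15.9 ± 1.67 FPKM in BALBc hyperoxia and 17.7 ± 0.296 in BALBc normoxia without a call, and Dkk4 was listed at 0 in all libraries.

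In C57, some libraries stood at an end of their group for many members of a set. Within C57 normoxia, library 4 was the highest of its group for 7 of 12 periportal members and the lowest for 12 of 20 pericentral members. Within C57 hyperoxia, library 4 was likewise the highest for 8 of 12 periportal members and the lowest for 11 of 20 pericentral ones, and library 2 was the highest for 10 of 20 pericentral members. C57 normoxia 2 was the lowest for 8 of 12 periportal members. In BALBc hyperoxia each library was the highest for 4 to 6 and the lowest for 3 to 7 of 20 pericentral members. For the 12 periportal members, BALBc hyperoxia 3 and 4 were each the highest for 5, and library 4 was the lowest for 0. BALBc normoxia 1, in a group of 3, was the highest for 9 of 20 pericentral members. These ranks were not compared with those of all genes. Averaged over a set, the deviation of log2(FPKM + 1) from the 15-library mean was 0.25 for periportal and -0.32 for pericentral members in C57 normoxia 4, and 0.23 and -0.09 in C57 hyperoxia 4. Across the other 13 libraries the periportal mean deviation lay between -0.26 and 0.21 and the pericentral one between -0.06 and 0.20. C57 normoxia 4 was the 1 library of its group with many genes at 1 fragment, and all C57 hyperoxia libraries were of that kind.

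The BALBc hyperoxia libraries had the lowest periportal deviations of all, -0.16 to -0.26, and those of BALBc normoxia were -0.07 to 0.16. The C57 hyperoxia libraries had -0.03 to 0.23 and the C57 normoxia libraries -0.01 to 0.25. Pericentral deviations were -0.04 to 0.03 in BALBc hyperoxia and 0.08 to 0.20 in BALBc normoxia, and -0.09 to 0.07 in C57 hyperoxia and -0.32 to 0.02 in C57 normoxia. These averages describe the sets, and the tests are those of the single genes given above.

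**Figure D5:**
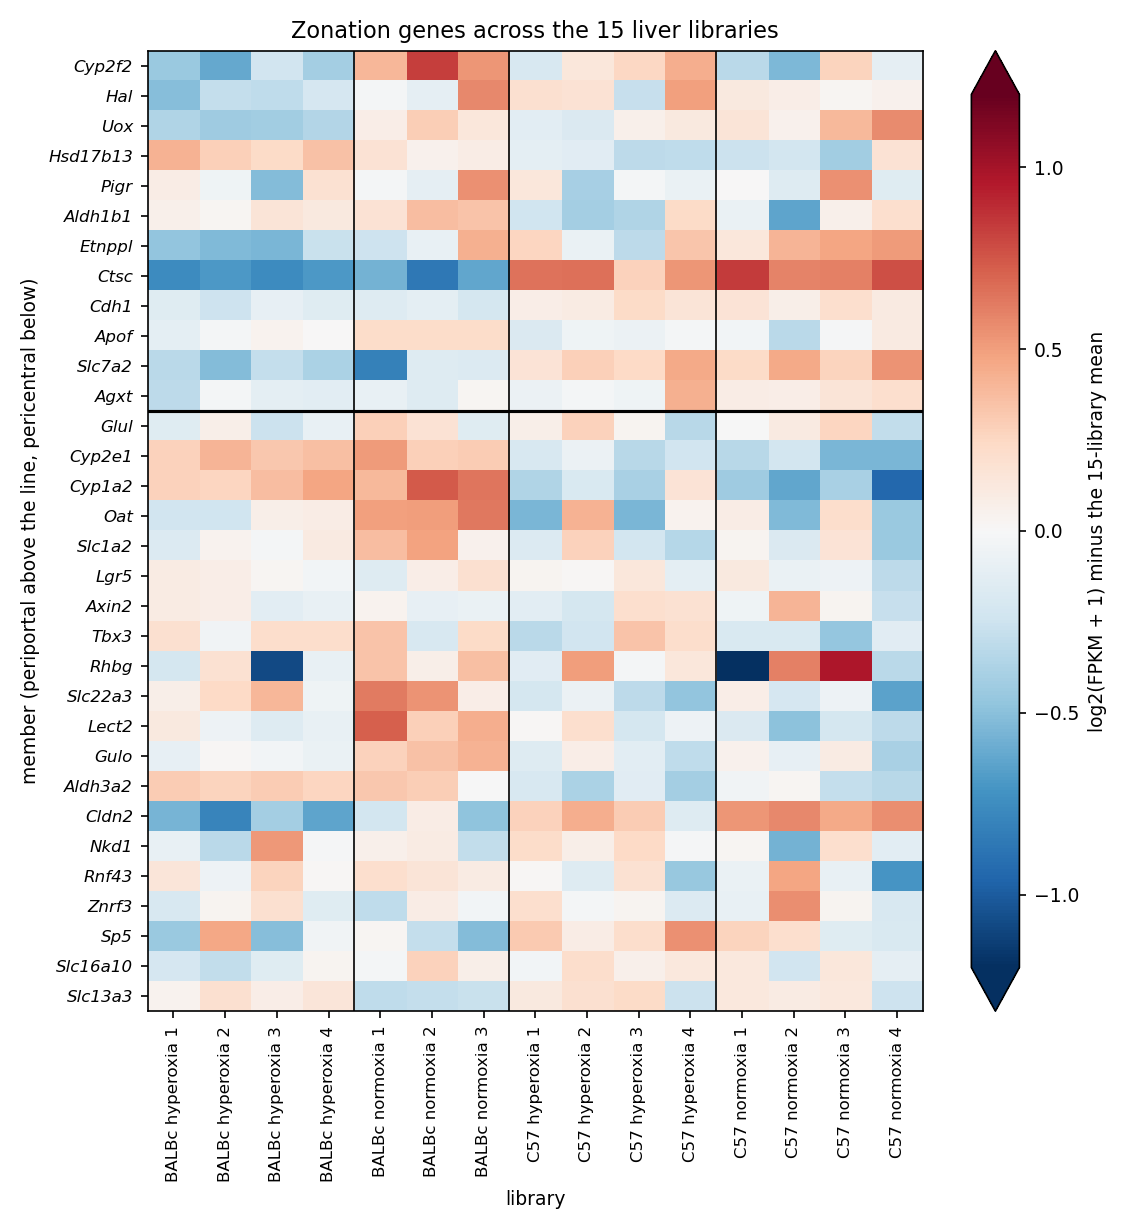
Deviation of log2(FPKM + 1) from the mean of the 15 libraries for the 32 tested members (rows, periportal above the line) in each library (columns). Red is above and blue below the mean; C57 normoxia 4 shows periportal members above (mean 0.25) and pericentral members below it (mean -0.32).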

How the data were processed

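Total RNA of 15 liver samples was extracted with TRIzol and made into libraries with a NEBNext Ultra II kit, per the labels' protocols. The authors deposited FPKM per gene for 54532 genes. HISAT2 2.0.5, featureCounts 1.5.0-p3 and GRCm38 are named in the submitters' processing notes, while strand, annotation and read filters are not given in the sources used here. Gene positions and exon lengths are from GENCODE M21, which matched 54495 gene identifiers and missed 37.

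The 13026 genes that reached 1 FPKM in 3 or more libraries were kept. On log2(FPKM + 1), limma 3.58.1 (R 4.3.3) estimated 1 mean per group over all 15 libraries, with a variance trend. Benjamini-Hochberg adjustment ran over all genes in each of 5 comparisons, with a threshold of 0.05 on the adjusted p. FPKM are not counts, so no count test was run. Low FPKM values lay in whole-fragment steps (98.3% to 98.8% of values under 25 fragments within 0.05 of a whole number), which gave the denominators. A library was of the kind with many genes at 1 fragment when over 25% of its genes with 1 to 10 fragments were at exactly 1.

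The members and gene lists were chosen with earlier results of these data known. From each other list, up to 4 called genes of smallest p per comparison were eligible to be named, and key markers and pathway genes are named beside them. Shared replicate numbers did not pair the libraries: of 21 same-number pairs 1 correlated above 0.1, and 4 of 15 libraries correlated best with their own number. Alternatives were another pseudocount (0.1), no filter or one at 5 FPKM, median, quantile and pan-hepatocyte scaling, no variance trend, a replicate block, only the groups compared, array weights, library kind as a term and leaving out each library. Fits of only the 8 or the 7 libraries of 1 kind were added after seeing the data. The code was tested on simulated data. Python 3.11.15, numpy 2.4.6, pandas 2.3.3 and matplotlib 3.10.9 were used.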

Additional observations from a re-analysis of the deposited data

Results flagged for a closer look

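The response to hyperoxia of 2 members differed between strains by the interaction term of limma. Cyp2f2 had a log2 interaction of -1.34 (adjusted p = 0.0234) and Lect2 one of -0.81 (adjusted p = 0.0294), BALBc change minus C57 change.

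Within groups of 4, a library stood far from the other 3 for 4 of the 99 combinations of member and group checked, and chance alone flags about 1 in 20. Agxt was at 522 FPKM in C57 hyperoxia 4, against 369 to 381 in the other C57 hyperoxia libraries. Slc13a3 was at 63.7 FPKM in C57 normoxia 4, against 81.2 to 83.0 in the others of its group. Tbx3 was at 3.33 FPKM in BALBc hyperoxia 2, against 4.11 to 4.17, and at 2.23 FPKM in C57 normoxia 3, against 2.92 to 3.05.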

How the results depend on the processing

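No change of a called member reversed its sign under any setting tried, but splits of calls did shift. With pan-hepatocyte scaling the periportal calls between strains in hyperoxia became 3 higher and 2 lower, in place of 1 and 7, and with the replicate block the 1 pericentral call of the BALBc response was Slc13a3, higher, in place of Lect2, lower. In C57 the count of called members was 0 in both sets in every refit and setting run, though the 7 libraries of 1 kind, with 1 C57 normoxia library, called 0 genes of any kind there. Other counts of called members moved by over 1.5 times as follows, and the cause was not tested. In those 7 libraries BALBc hyperoxia, BALBc normoxia and C57 normoxia hold 1 library each, assumed to vary like the 4 of C57 hyperoxia, and no gene at all was called for the BALBc response or the interaction, so counts of 0 there say nothing about stability. Between strains these libraries set 1 against 4 in hyperoxia and 1 against 1 in normoxia. For the BALBc response the periportal count of 2 became 1 without a filter and 0 in the 8 or the 7 libraries of 1 kind. The pericentral count of 1 became 0 with a pseudocount of 0.1, without a filter, with median, quantile or pan-hepatocyte scaling, without a variance trend and in the 8 or 7 libraries, 3 with only the groups compared and 2 with library kind as a term. For the interaction the periportal count of 1 became 0 without a filter, with library kind as a term and in the 7 libraries, and the pericentral count of 1 became 0 in these settings and with quantile or pan-hepatocyte scaling and array weights. Between strains in hyperoxia the periportal count of 8 became 5 with pan-hepatocyte scaling or library kind as a term and 3 in the 7 libraries, where the pericentral count of 4 became 0. In normoxia the 7 libraries gave 2 periportal calls in place of 5 and 4 pericentral calls in place of 8. Leaving out 1 library gave, for the periportal and the pericentral set, 0 to 2 and 0 to 1 in the BALBc response, 0 to 1 and 0 to 1 for the interaction, 4 to 8 and 4 to 5 between strains in hyperoxia, and 4 to 7 and 5 to 9 in normoxia. Over all genes these refits called 24 to 156 in BALBc, 36 to 237 in C57, 40 to 162 for the interaction, 2421 to 3310 between strains in hyperoxia and 3006 to 3866 in normoxia, in place of 123, 122, 107, 3025 and 3910. The lowest of these were 24 without BALBc normoxia 3, 36 without C57 hyperoxia 1 and 40 without BALBc hyperoxia 2, and C57 normoxia 4 gave the highest C57 count of 237 and interaction count of 162 when left out. With the replicate number as a block, which did not pair the libraries, 118, 79, 67, 2894 and 3710 genes were called, and Lect2 in the BALBc response (adjusted p = 0.0572), Hal in hyperoxia and Oat in normoxia between strains lost their calls. Members with few fragments, such as Sp5, Rhbg and Lgr5, limit what could be detected.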
